A study of Mus musculus with 6 samples.

Results

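The endoplasmic reticulum (ER) chaperones and disulfide isomerases are the proteins that fold secreted and membrane proteins in the ER. A list of 34 of their genes was described here, out of 35540 genes with a symbol in the deposited table, and all 34 were in that table. The genes were chosen by name, for the role of their proteins, and not by a measured value of these mice, though earlier results of these data were known. Liver RNA was sequenced from 3 mice of genotype *Surf4 fl/fl Alb-Cre+* and from 3 littermate controls of genotype *Surf4 fl/fl Alb-Cre-*, with 1 library per mouse. Both genotypes carried a *Surf4* allele with loxP sites around exon 2 on the C57BL/6J background, and only the first also carried a *Cre* transgene under the albumin promoter. That promoter is active in hepatocytes, so the other cells of the liver keep an intact *Surf4* gene while their RNA is part of every library. The mice of replicate 2 were female and the other mice male, in both genotypes. Mice of the study were fasted overnight before tissue was collected, and their age at RNA sequencing was not given in the sources used here.

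Proteins bound for secretion enter the ER unfolded, and hepatocytes pass through it nearly all of the plasma proteins, including the apolipoproteins. Hsp70 and Hsp90 chaperones hold exposed hydrophobic stretches, lectin chaperones hold the glycans of glycoproteins, disulfide isomerases form and rearrange the bonds between cysteines, and prolyl isomerases turn the bonds before prolines. When unfolded protein accumulates, the transcription factors ATF6 and XBP1 raise many of these genes together, which is part of the unfolded protein response. SURF4, the product of the deleted gene, is a cargo receptor that carries secreted proteins from the ER toward the Golgi.

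The promoters of the genes are shown first, since the ER stress response element that ATF6 binds together with NF-Y was found in 8 of them. This element reads CCAAT, any 9 bases and CCACG, on either strand. RefSeq promoters of the GRCm38.p6 build, each with 250 bases before and 50 bases after the start site, were at hand for 29 of the 34 genes, and *Hspa13*, *Hyou1*, *Sil1*, *Erp29* and *Manf* had none in the table used. The element was present in 8 of these 29 genes (27.6%), against 37 of all 27025 genes with a promoter (0.137%) or 39 of all 32851 promoters (0.119%). The 8 genes were *Hspa5*, *Hsp90b1*, *Calr*, *Canx*, *Pdia6*, *Ero1b*, *Dnajc3* and *Creld2*, and *Hsp90b1* held it at 2 places. The stretches around each element are printed 5′ to 3′ along the strand of the gene, with the outer blocks of the element in capitals, so that a reversed element reads CGTGG, 9 bases and ATTGG. Up to 20 bases are shown on each side, or 5 bases for *Hspa5*, where an annotated exon overlaps.
Hspa5, chr2:34772020-34772048, plus strand: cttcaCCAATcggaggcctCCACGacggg
Hsp90b1, chr10:86705618-86705676, minus strand: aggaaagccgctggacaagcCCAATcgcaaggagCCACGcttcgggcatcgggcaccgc
Hsp90b1, chr10:86705513-86705571, minus strand: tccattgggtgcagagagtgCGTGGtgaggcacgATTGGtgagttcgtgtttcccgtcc
Pdia6, chr12:17266471-17266529, plus strand: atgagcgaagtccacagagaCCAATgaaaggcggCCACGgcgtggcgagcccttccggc
Ero1b, chr13:12565662-12565720, plus strand: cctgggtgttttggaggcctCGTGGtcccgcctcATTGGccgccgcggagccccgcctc
Calr, chr8:84847055-84847113, minus strand: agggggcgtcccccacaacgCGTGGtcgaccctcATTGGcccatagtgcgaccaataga
Canx, chr11:50325780-50325838, minus strand: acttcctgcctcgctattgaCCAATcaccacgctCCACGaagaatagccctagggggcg
Creld2, chr15:88819500-88819558, plus strand: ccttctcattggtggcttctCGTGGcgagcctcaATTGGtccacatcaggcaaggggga
Dnajc3, chr14:118937807-118937865, plus strand: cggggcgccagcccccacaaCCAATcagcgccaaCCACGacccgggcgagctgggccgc
All 9 elements ended before the RefSeq start site, the nearest at base -47 in *Hspa5* and the farthest starting at base -212 in *Hsp90b1*. The GENCODE M21 gene of *Hspa5* starts farther upstream and includes its element. Of 2 related elements, the type II form (ATTGG, any base and CCACG) was found in *Dnajb11* alone, at bases 7 to 17 after the start site (3.45% of the 29 genes and 0.0444% of all genes). The sequence TGACGTGG, which XBP1 and ATF6 can bind, was found in *Txndc5* and *Txndc11* (6.9% of the 29 genes and 0.714% of all genes). No gene of the list held more than 1 of these 3 kinds of element, so that none of the matches overlapped another kind. A match shows only that these letters are present.

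Expression was read as TPM, an abundance corrected for transcript length and scaled to a total of 1000000 per mouse, summed over the transcripts of a gene. TPM do not keep read numbers, so the depth of each library is unknown here and no counting error can be given. Genotypes were compared by limma, which fits a linear model per gene and moderates its variance across genes, on log2(TPM + 0.1). The test covered 14189 genes whose mean reached 0.1 TPM, and all 34 genes of the list passed this minimum. Log2 fold changes are given as *Surf4 fl/fl Alb-Cre+* minus control, from the group means on that scale, and Benjamini-Hochberg adjustment of p ran over all 14189 genes, with a threshold of 0.01. *Surf4* itself was at 59.0, 71.8 and 54.3 TPM in the *Surf4 fl/fl Alb-Cre+* livers of replicates 1, 2 and 3 and at 92.5, 94.5 and 92.5 TPM in controls, each deleted mouse below each control (p = 0.1 in a two-sided exact permutation test, which cannot go lower with 3 mice against 3). These values cover whole transcripts, whether or not exon 2 is in them. The libraries differed in how TPM were spread over genes. *Surf4 fl/fl Alb-Cre+* replicate 2 held the highest value of the 6 mice for 45.8% of the genes tested and *Surf4 fl/fl Alb-Cre+* replicate 3 the lowest for 42.9%. Comparisons were therefore also made after scaling by median of ratios, which sets the typical gene equal between mice. The factors were 0.989, 1.15 and 0.874 in *Surf4 fl/fl Alb-Cre+* livers and 1.00, 1.05 and 0.965 in controls, in the order of replicates 1, 2 and 3. Because a whole piece of liver was sequenced, fewer cells of a type and less RNA per cell cannot be told apart.

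The 34 genes together took 3422, 3823 and 2767 TPM in the *Surf4 fl/fl Alb-Cre+* livers of replicates 1, 2 and 3, and 3031, 2631 and 3016 TPM in the controls. The group means were 3337 ± 533 TPM and 2893 ± 227 TPM (SD, n = 3 each), and the groups overlapped. Levels ranged widely between genes. A mean of at least 100 TPM over all mice was seen for 8 of the genes, 20 lay between 10 and 100 TPM, and 6 were under 10 TPM. The 5 highest were *P4hb*, *Hspa5*, *Calr*, *Hsp90b1* and *Ppib*, which made up 56.6% of the summed TPM, and the lowest was *Fkbp14*. TPM are per transcript length, so these levels can be compared between genes.

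**Figure D1:**
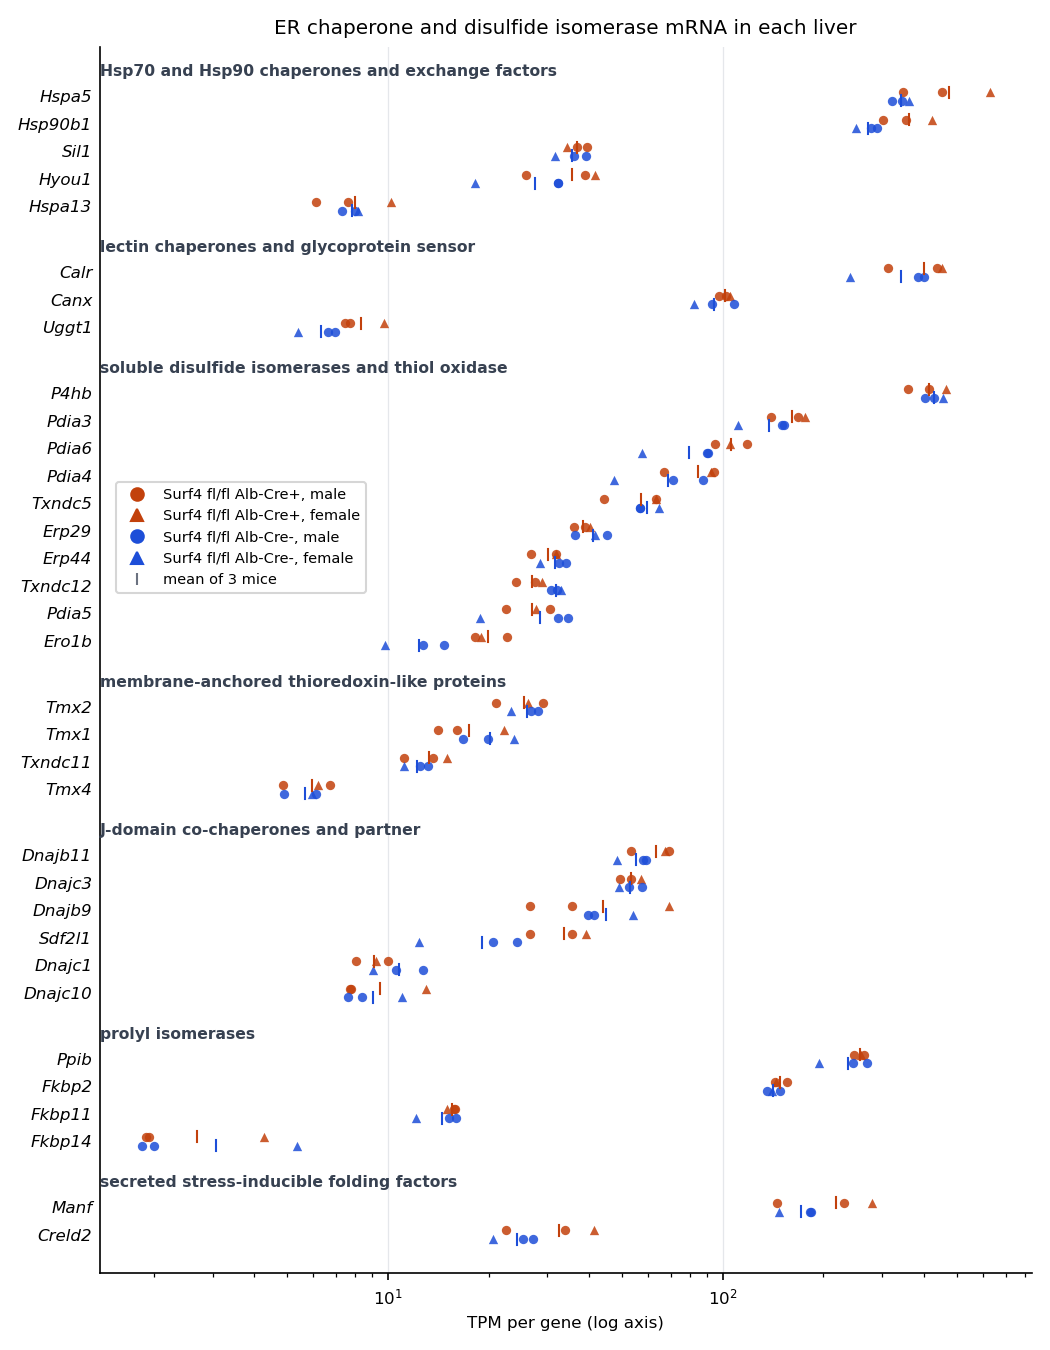
TPM of each of the 34 genes (log axis) in each of the 6 livers, ordered by role and level. Circles are male mice, triangles are female mice and bars are means of 3 mice. The 5 genes of highest mean lie near the right edge, and the triangle of the female control is the lowest value of its row for 18 of the 34 genes.

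No gene of the list passed the threshold, at an adjusted p of 0.9999 for the lowest of them, and neither did any of the 14189 genes tested (0%). Even *Surf4* itself missed it, at a log2 fold change of -0.60 (unadjusted p = 0.00269 and adjusted p = 0.9999 with limma). Missing the threshold therefore does not show that a gene is unchanged. At an unadjusted p under 0.05 in limma, 3 genes of the list were higher in *Surf4 fl/fl Alb-Cre+* livers and 0 were lower, where 0.803% of all genes were higher and 0.958% lower. The 3 genes were *Sdf2l1*, *Ero1b* and *Hsp90b1*. Same-numbered mice deviated together, though what the number marks is unknown, and a second fit took this number as a block. It left the adjusted result at 0 genes (0%), with 0.485 as the lowest adjusted p of a listed gene, that of *Ero1b*, while *Hspa5* and *Pdia6* joined the former to make 5 higher and 0 lower, against 2.28% and 2.42% of all genes. The log2 fold change was above 0 for 22 of the 34 genes and below 0 for 12, with a median of 0.09 and a range from -0.25 to 0.85, where the median of all genes tested was -0.0017. Leaving out single mice moved these medians. Without the female control the median of the list was 0.036, with 20 genes above 0 and 14 below, and that of all genes 0.049, so that the order of the medians turned. Without *Surf4 fl/fl Alb-Cre+* replicate 3 they were 0.16 and 0.11, and in male mice alone -0.0084 and -0.0801. The count of 3 genes became 1, *Ero1b*, without *Surf4 fl/fl Alb-Cre+* replicate 1 (1.30% of all genes in either direction) and 6 without *Surf4 fl/fl Alb-Cre+* replicate 3 (1.89% of all genes). Between the genotypes no overlap was seen for 5 genes with higher values in every *Surf4 fl/fl Alb-Cre+* mouse (2.18% of all genes) and for 1 with lower values (2.71% of all genes). The first were *Hsp90b1*, *Uggt1*, *Pdia6*, *Ero1b* and *Sdf2l1*, and the last was *Txndc12*. The 95% confidence interval left out 0 for 3 genes and reached 1 or -1, a change of 2-fold on this scale, for 4.

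**Figure D2:**
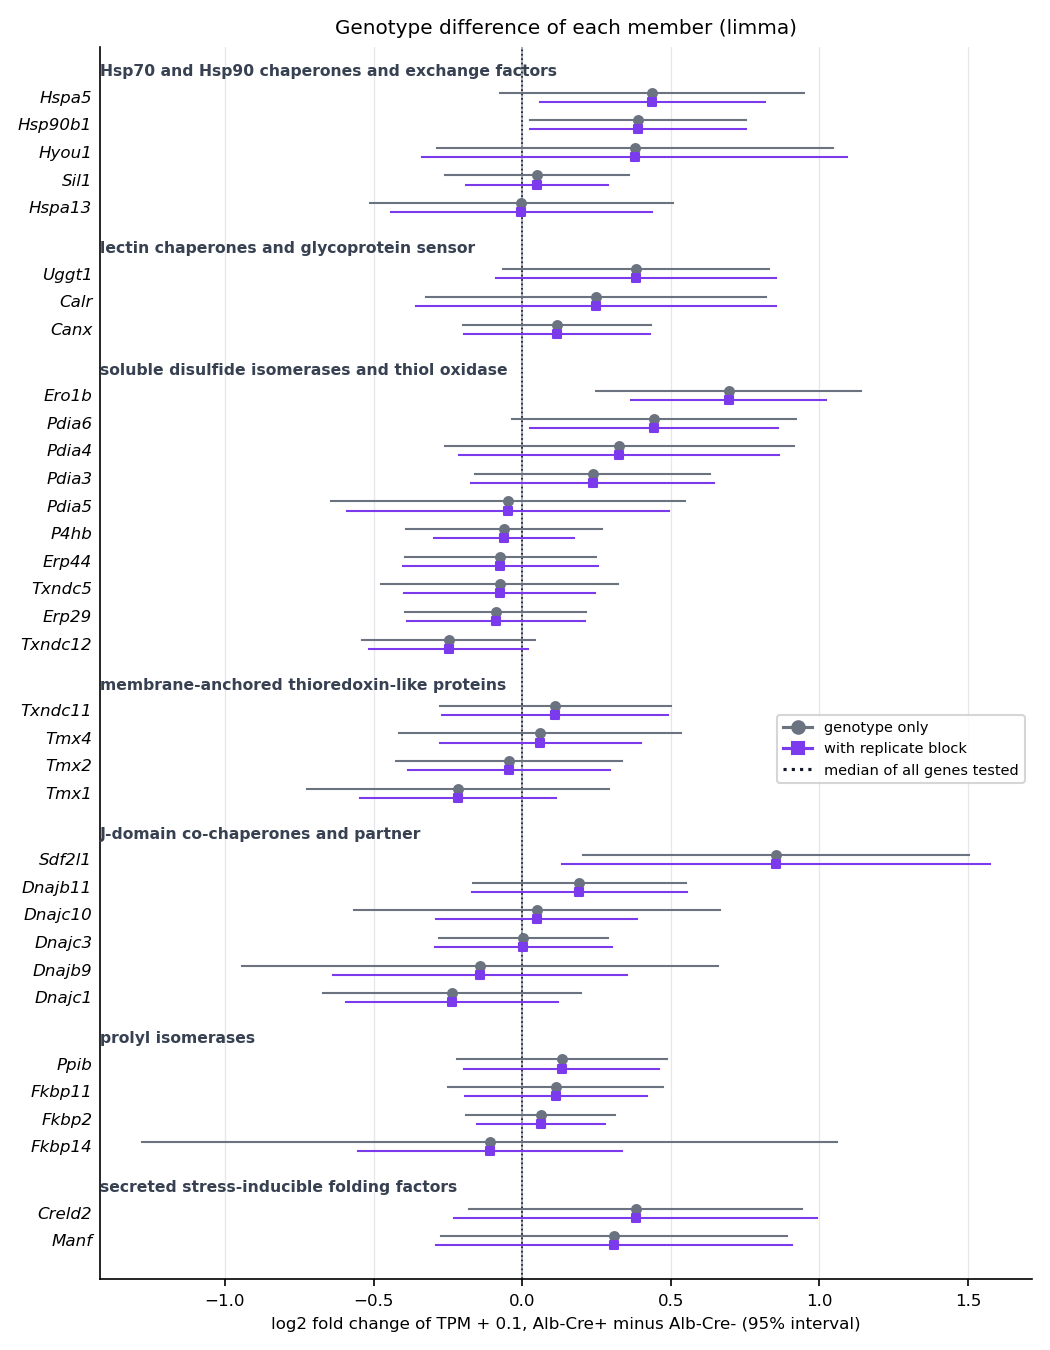
Log2 fold change of each gene, *Surf4 fl/fl Alb-Cre+* minus *Surf4 fl/fl Alb-Cre-*, with its 95% confidence interval from limma without (grey circles) and with (purple squares) the replicate block, 3 mice per genotype. The dotted line is the median of all genes tested. *Sdf2l1* and *Ero1b* have the highest values, 0.85 and 0.69, and most intervals include 0.

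Among the Hsp70 and Hsp90 chaperones and their exchange factors, the log2 fold change was above 0 for 4 of 5 genes, with a median of 0.38. *Hspa5* (chromosome 2, 34771970 to 34777547, plus strand, in GRCm38 with the GENCODE M21 annotation) encodes BiP, the Hsp70 of the ER, which also holds the sensors of the unfolded protein response inactive. It was at 452, 627 and 346 TPM in the *Surf4 fl/fl Alb-Cre+* livers of replicates 1, 2 and 3 and at 343, 359 and 321 TPM in controls. The controls lay close together and the *Surf4 fl/fl Alb-Cre+* livers spread upward from them, with replicate 3 inside the range of the controls. The log2 fold change came to 0.44 (standard error 0.22, unadjusted p = 0.083 with limma). The replicate block gave a standard error of 0.15 (unadjusted p = 0.0305 with limma). *Hsp90b1* (chromosome 10, 86690209 to 86705509, minus strand) encodes GRP94, the Hsp90 of the ER. Its values were 353, 423 and 302 TPM in *Surf4 fl/fl Alb-Cre+* livers and 288, 251 and 277 TPM in controls, so that the groups did not overlap. The log2 fold change was 0.39 (standard error 0.15, unadjusted p = 0.0393 with limma). *Sil1* (chromosome 18, 35266396 to 35499780, minus strand), a nucleotide exchange factor of BiP, was at 39.4, 34.2 and 36.7 TPM in *Surf4 fl/fl Alb-Cre+* livers and at 39.1, 31.6 and 36.1 TPM in controls. Each mouse was close to its same-numbered control, with the female mouse lowest in both genotypes, and the log2 fold change was 0.05 (95% confidence interval -0.26 to 0.36). *Hyou1*, which encodes GRP170, the other exchange factor, had 35.4 ± 8.40 TPM in *Surf4 fl/fl Alb-Cre+* livers and 27.6 ± 8.14 TPM in controls (SD, n = 3 each), with the female control lowest at 18.2 TPM. *Hspa13*, an Hsp70 relative, had 7.98 ± 2.08 and 7.82 ± 0.437 TPM.

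All 3 genes of the lectin chaperones and the glycoprotein sensor had a log2 fold change above 0, with a median of 0.25. Calreticulin and calnexin, from *Calr* and *Canx*, bind glycans that carry a single glucose, and UGGT1 puts that glucose back on glycoproteins that are not yet folded. *Calr* (chromosome 8, 84841850 to 84846934, minus strand) was at 435, 453 and 313 TPM in *Surf4 fl/fl Alb-Cre+* livers and at 384, 240 and 400 TPM in controls. The female control was the lowest of the 6 mice and the second lowest was *Surf4 fl/fl Alb-Cre+* replicate 3, so the genotypes overlapped, and the log2 fold change was 0.25 (standard error 0.24). *Uggt1* (chromosome 1, 36140027 to 36244720, minus strand) was at 7.70, 9.75 and 7.46 TPM in *Surf4 fl/fl Alb-Cre+* livers and at 6.63, 5.41 and 6.96 TPM in controls. Each deleted mouse lay above each control, by a margin that was small in the males. Its log2 fold change was 0.38 (standard error 0.19, unadjusted p = 0.0831 with limma), and after scaling by median of ratios the unadjusted p was 0.0484. *Canx* had 102 ± 3.80 and 94.3 ± 13.3 TPM, with a log2 fold change of 0.12.

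The soluble disulfide isomerases and thiol oxidase did not share a direction, with 4 of 10 genes above 0, 6 below and a median of -0.05. *Ero1b* (chromosome 13, 12565874 to 12611396, plus strand) encodes an oxidase that passes electrons from disulfide isomerases to oxygen, which renews their oxidised form. It was at 22.8, 18.9 and 18.3 TPM in *Surf4 fl/fl Alb-Cre+* livers and at 14.7, 9.84 and 12.7 TPM in controls. All 3 deleted mice lay above all 3 controls, and *Ero1b* was the gene of the list with the smallest p in both fits. The log2 fold change was 0.69 (standard error 0.19, unadjusted p = 0.00777 with limma), a ratio of 1.62. The replicate block gave a standard error of 0.13 (unadjusted p = 0.00248 with limma). Within same-numbered mice the log2 differences were 0.63, 0.94 and 0.52, and after scaling by median of ratios they were 0.64, 0.81 and 0.66. *Pdia6* (chromosome 12, 17266545 to 17284770, plus strand) encodes P5, a disulfide isomerase that works with BiP. Its values were 118, 105 and 95.02 TPM in *Surf4 fl/fl Alb-Cre+* livers and 90.1, 57.4 and 90.5 TPM in controls, where the female control stood below the rest. Its log2 fold change was 0.44 (standard error 0.20, unadjusted p = 0.0645 with limma and 0.0413 with the replicate block). After scaling by median of ratios the groups of *Pdia6* overlapped, while those of *Hspa5* no longer did.

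*P4hb* (chromosome 11, 120560298 to 120573253, minus strand) encodes protein disulfide isomerase itself, which is also a subunit of collagen prolyl hydroxylase and of the microsomal triglyceride transfer protein that loads lipid onto apolipoprotein B. It had the highest mean of the list, at 414, 465 and 358 TPM in *Surf4 fl/fl Alb-Cre+* livers and 429, 456 and 401 TPM in controls. The groups overlapped in full, and the log2 fold change was -0.06 with a 95% confidence interval of -0.39 to 0.27. *Txndc12* (chromosome 4, 108834601 to 108862127, plus strand), a small thioredoxin-like oxidoreductase, was at 27.6, 28.9 and 24.2 TPM in *Surf4 fl/fl Alb-Cre+* livers and at 30.8, 33.0 and 31.9 TPM in controls. It was the gene with every deleted mouse below every control, with a log2 fold change of -0.25 (standard error 0.12, unadjusted p = 0.0849 with limma and 0.0626 with the replicate block). The isomerase genes *Pdia3* (ERp57, the partner of both lectin chaperones) and *Pdia4* (ERp72) had log2 fold changes of 0.24 and 0.33, with means of 161 ± 19.2 and 84.4 ± 15.2 TPM in *Surf4 fl/fl Alb-Cre+* livers and 138 ± 23.4 and 68.6 ± 20.2 TPM in controls (SD, n = 3 each). *Pdia5*, *Txndc5*, *Erp44*, which returns ERO1 enzymes from the Golgi, and *Erp29* had log2 fold changes of -0.05, -0.08, -0.07 and -0.09, each with an interval that included 0.

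The membrane-anchored thioredoxin-like proteins had 2 genes above 0 and 2 below, with a median of 0.01. *Tmx1* (chromosome 12, 70453095 to 70468040, plus strand) was at 16.1, 22.3 and 14.2 TPM in *Surf4 fl/fl Alb-Cre+* livers and at 16.8, 23.9 and 19.9 TPM in controls. Each deleted mouse was below its same-numbered control and the female mice were highest in both genotypes, so that the groups overlapped (log2 fold change -0.22, standard error 0.22). *Tmx2*, *Tmx4* and *Txndc11* had log2 fold changes of -0.04, 0.06 and 0.11, with standard errors of 0.16, 0.20 and 0.16.

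Of the J-domain proteins, which bring clients to BiP and drive its ATP hydrolysis, and their partner SDF2L1, 4 of 6 genes were above 0, with a median of 0.03. *Sdf2l1* (chromosome 16, 17130138 to 17132383, minus strand), whose product binds the J-domain protein ERdj3, had the largest log2 fold change of the list. It was at 35.5, 39.1 and 26.6 TPM in *Surf4 fl/fl Alb-Cre+* livers and at 20.6, 12.4 and 24.3 TPM in controls. The genotypes did not overlap, but the values of replicate 3 lay close to each other while those of the female mice lay far apart. The log2 fold change was 0.85 (standard error 0.28, unadjusted p = 0.0172 with limma and 0.0281 with the replicate block), and within same-numbered mice it was 0.78, 1.65 and 0.13. *Dnajb11*, which encodes ERdj3, had 63.1 ± 8.73 and 55.1 ± 5.89 TPM and a log2 fold change of 0.19. *Dnajc3* (p58IPK) and *Dnajc10* (ERdj5, a disulfide reductase) had log2 fold changes of 0.0042 and 0.05. *Dnajb9* (ERdj4, which returns BiP to the sensor IRE1) and *Dnajc1*, a membrane J-domain protein at the ribosome, had log2 fold changes of -0.14 and -0.24. The spread of *Dnajb9* was wide, from 26.7 to 69.4 TPM in *Surf4 fl/fl Alb-Cre+* livers and 39.7 to 54.0 TPM in controls, with the female mouse highest in both genotypes.

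The prolyl isomerases had small log2 fold changes, from -0.11 to 0.13. *Ppib* (chromosome 9, 66060222 to 66066623, plus strand), which encodes cyclophilin B, was at 264, 260 and 247 TPM in *Surf4 fl/fl Alb-Cre+* livers and at 246, 194 and 271 TPM in controls. The deleted mice lay within the range of the controls and the female control was lowest, with a log2 fold change of 0.13 (95% confidence interval -0.22 to 0.49). *Fkbp2* (chromosome 19, 6977741 to 6980501, minus strand), an FK506-binding prolyl isomerase, was at 156, 144 and 144 TPM in *Surf4 fl/fl Alb-Cre+* livers and at 148, 141 and 136 TPM in controls. All 6 mice were close together, and the log2 fold change was 0.06 (standard error 0.11, the smallest of the list). *Fkbp11* had a log2 fold change of 0.11, and *Fkbp14*, which acts on collagens, one of -0.11 with the largest standard error of the list, 0.50. *Fkbp14* was at 4.27 and 5.36 TPM in the female mice and between 1.85 and 2.01 TPM in the males.

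The secreted folding factors *Creld2* and *Manf*, both induced by ER stress, had log2 fold changes of 0.38 and 0.31. *Creld2* had 32.6 ± 9.42 TPM in *Surf4 fl/fl Alb-Cre+* livers and 24.4 ± 3.37 TPM in controls, and *Manf* 219 ± 68.2 and 171 ± 20.7 TPM (SD, n = 3 each). In both, *Surf4 fl/fl Alb-Cre+* replicate 3 lay within or below the range of the controls and the female mouse of that genotype was highest.

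The difference between genotypes depended on which same-numbered mice were compared. In replicate 1, 25 of the 34 genes were higher in the *Surf4 fl/fl Alb-Cre+* mouse, with a median log2 difference of 0.09. In replicate 2, the female mice, 29 were higher, with a median of 0.36, and in replicate 3, 10 were higher and the median was -0.15. Of all 14189 genes tested, 6335, 9457 and 4710 were higher in the same order, with medians of -0.02, 0.15 and -0.14. After scaling by median of ratios, 27, 24 and 15 of the 34 genes were higher, with medians of 0.10, 0.23 and -0.01 against -0.0055, 0.03 and -0.0025 over all genes. Of all genes, 6863, 7583 and 6890 were then higher. The sign was the same in all 3 comparisons for 8 genes with higher values (11.5% of all genes) and for 2 with lower values (12.4% of all genes). The former were *Hspa5*, *Hsp90b1*, *Sil1*, *Uggt1*, *Pdia6*, *Ero1b*, *Sdf2l1* and *Fkbp2*, and the latter were *Txndc12* and *Tmx1*. After scaling they were 11 (13.8% of all genes) and 4 (13.1% of all genes), of which *Pdia3*, *Pdia4*, *Dnajc10*, *Ppib* and *Fkbp11* were added to the higher and *P4hb* and *Dnajc1* to the lower, while *Sil1* and *Fkbp2* left.

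**Figure D3:**
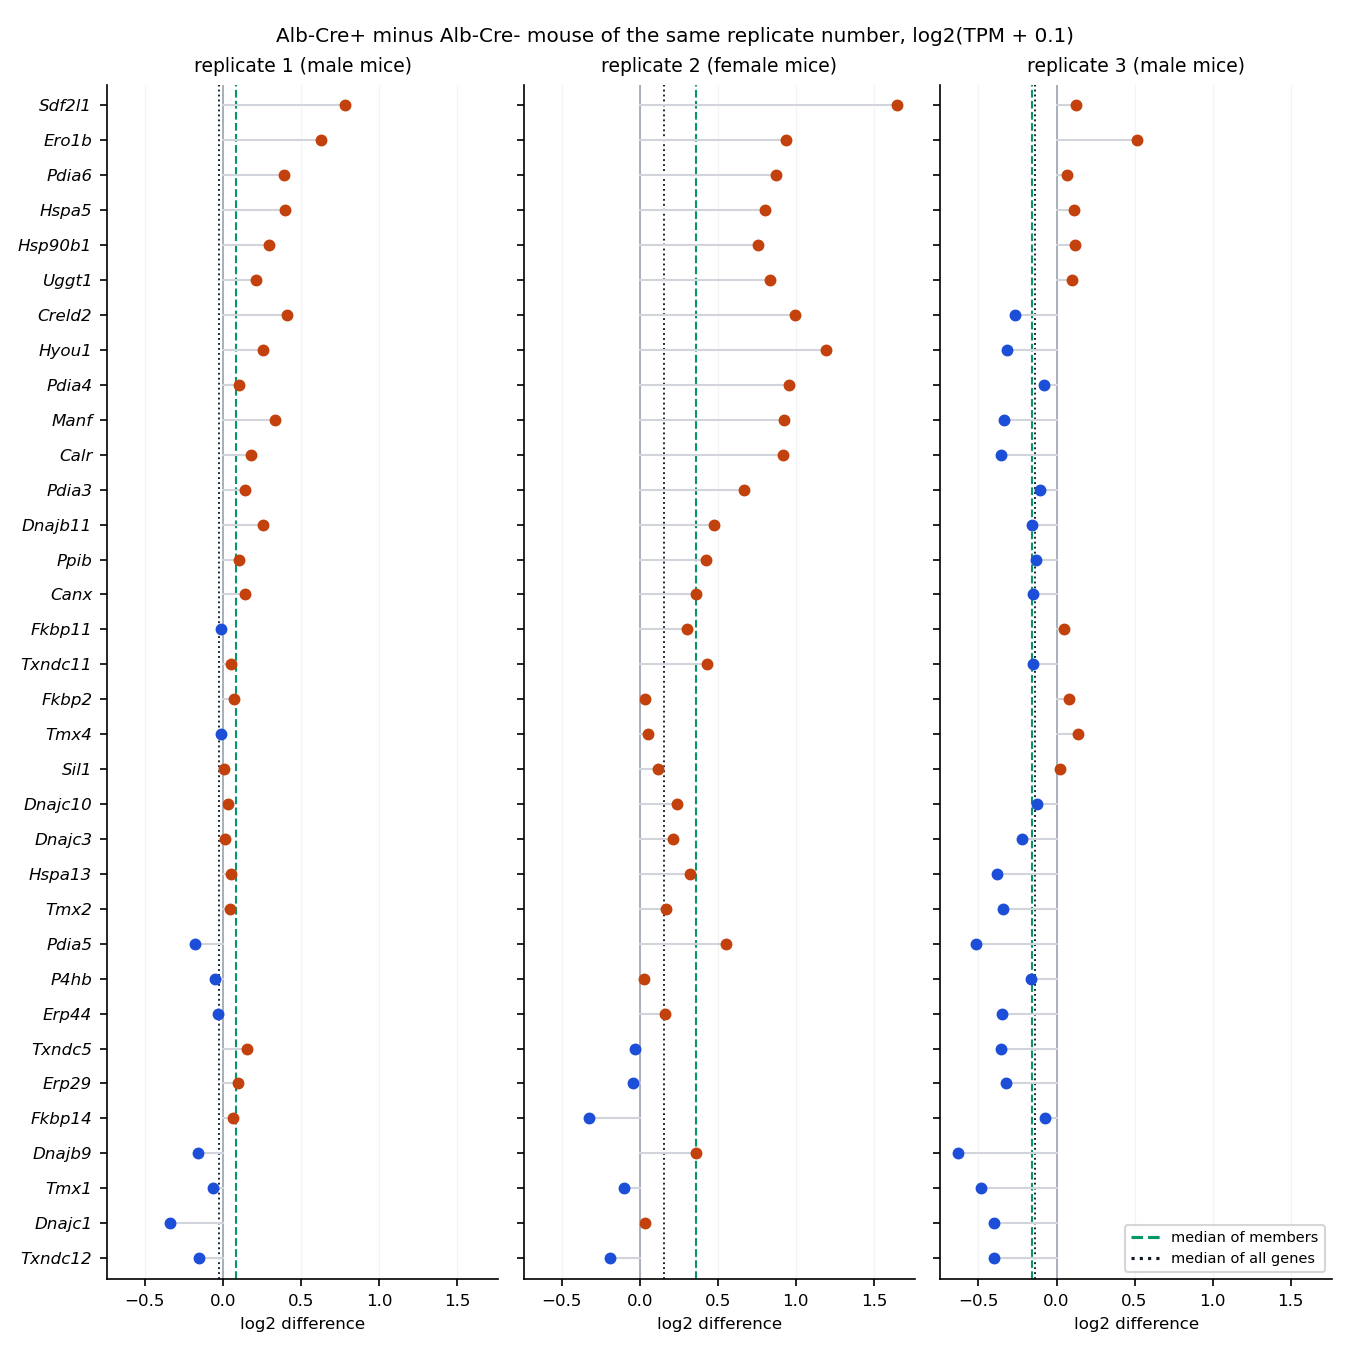
Log2 difference between the *Surf4 fl/fl Alb-Cre+* and the *Surf4 fl/fl Alb-Cre-* mouse of the same replicate number for each of the 34 genes, 1 panel per number, on the log2(TPM + 0.1) scale, orange above 0 and blue below. Dashed lines are the medians of the 34 genes (0.09, 0.36 and -0.15) and dotted lines the medians of all genes tested, and the points of replicate 2, the female mice, reach farthest to the right.

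The female control stood apart for these genes. It held the lowest value of the 6 mice for 18 of the 34 genes, against 11.8% of all genes tested. Among controls, the female was below both males for 22 of the 34 genes (64.7%, against 25.5% of all genes), with a median log2 difference of -0.24, or -0.33 after scaling, where the medians of all genes were 0.14 and 0.06. In *Surf4 fl/fl Alb-Cre+* livers the female was above both males for 22 genes (64.7%, against 69.8% of all genes), with a median log2 difference of 0.21, or -0.09 after scaling, where those of all genes were 0.37 and 0.08. *Hyou1*, *Pdia4* and *Sdf2l1* were at 18.2, 47.4 and 12.4 TPM in the female control, and at 25.9, 66.9 and 20.6 TPM or more in every other mouse. Both female mice were above all 4 males for 7 genes (36.6% of all genes) and below them for 2 (5.00% of all genes). After scaling they were above for *Dnajb9*, *Dnajc10* and *Fkbp14* (23.2% of all genes) and below for 10 (29.4%, against 15.0% of all genes), which were *Sil1*, *Canx*, *Pdia5*, *Erp44*, *Tmx2*, *Dnajc1*, *Dnajc3*, *Ppib*, *Fkbp2* and *Fkbp11*.

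Whether the genotype difference of the female mice differed from that of the males was tested as the interaction of genotype and sex, with 2 residual degrees of freedom. The female difference came from 1 mouse per genotype and had no replicate, so the spread came from the males alone and the females were assumed to vary like them. Since the female mice are replicate 2 in both genotypes, sex and replicate number cannot be told apart here. The threshold was passed by 0 genes of all tested (0%), with an adjusted p of 0.775 for the lowest of the list. At an unadjusted p under 0.05 in limma, 6 genes of the list had a positive interaction and 0 a negative one, where 5.04% of all genes were positive and 1.04% negative. These were *Sdf2l1* (1.20, standard error 0.34), *Hyou1* (1.22, standard error 0.38), *Calr* (1.00, standard error 0.34), *Pdia5* (0.90, standard error 0.32), *Uggt1* (0.68, standard error 0.24) and *Pdia3* (0.65, standard error 0.23), all on the log2 scale. The median over the 34 genes was 0.41 and over all genes 0.23. After scaling by median of ratios these were 0.21 and 0.03, and 5 of the 6 genes, all but *Uggt1*, still had an unadjusted p under 0.05 with a positive interaction (3.45% of all genes were positive and 2.31% negative). Only *Sdf2l1* of the list did so without a trend of the variance on mean expression, and *Uggt1* and *Sdf2l1* without a minimum of TPM. The shares of all genes in these fits are not given, so these genes cannot be set against them. Without a minimum, genes outside the list passed the adjusted threshold as well, as described in the closing section on processing. With the male mice alone, an alternative chosen after the data were seen, 14 of the 34 genes were above 0 and 20 below. The median was -0.0084 for the list and -0.0801 for all genes. *Ero1b* was the gene of the list with an unadjusted p under 0.05 in limma there, where 3.86% of all genes had one.

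The 8 genes with an ER stress response element, printed above, all had a log2 fold change above 0, with a median of 0.39 and a range from 0.0042 (*Dnajc3*) to 0.69 (*Ero1b*). Of all 14189 genes tested, 7044 were above 0. For the 21 genes that had a promoter in the table and no such element the median was 0.05, with 11 above 0 and 10 below. All 8 were higher in the *Surf4 fl/fl Alb-Cre+* mouse of replicates 1 and 2, and 4 of 8 in replicate 3. Their median log2 differences were 0.34, 0.84 and -0.04 in replicates 1, 2 and 3, where 6335, 9457 and 4710 of all genes were higher. In male mice alone, *Calr*, *Canx* and *Dnajc3* were below 0. *Sdf2l1*, with the largest log2 fold change, had no exact match to the element in its 300 bases. Outside the list, 29 further genes held the element, of which 12 passed the minimum of 0.1 TPM, with 10 above 0, 2 below and a median of 0.24. The highest of these was *Derl3*, at a log2 fold change of 3.19. The values of the 8 genes are not independent of each other, and the difference between genes with and without the element was not tested.

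**Figure D4:**
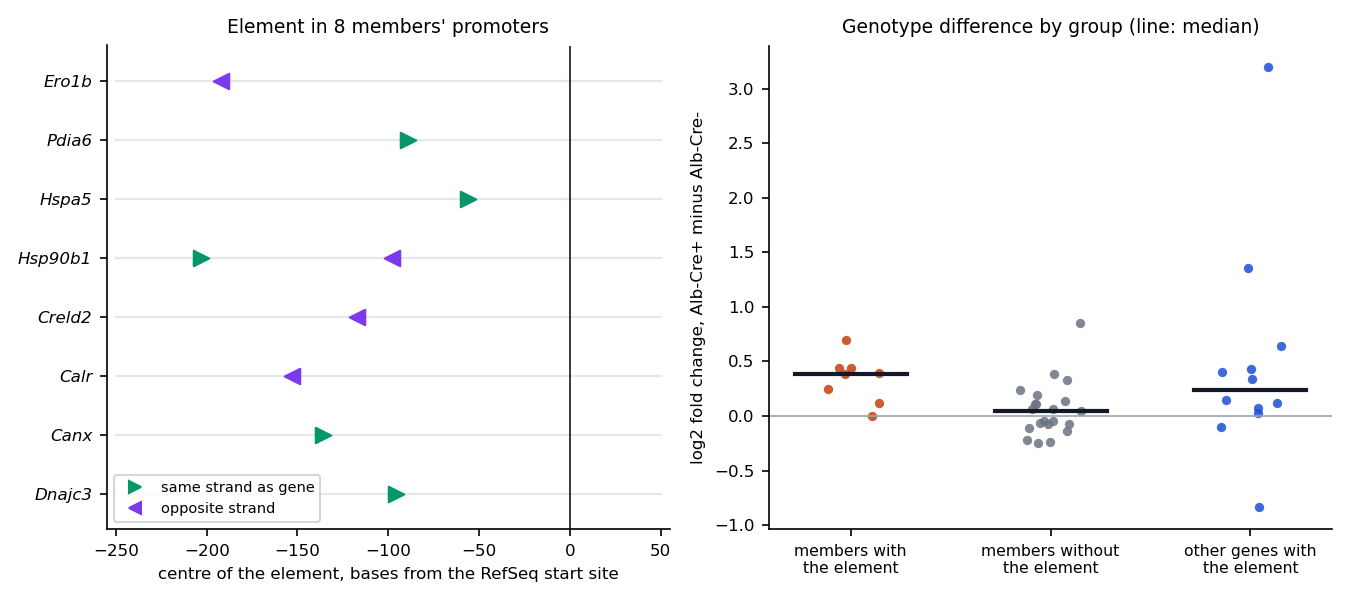
Left, centre of each ER stress response element in bases from the RefSeq start site of 8 genes, with the direction of the triangle giving its strand. Right, log2 fold change of the genotypes for the 8 genes with the element (median 0.39), the 21 genes of the list without it (median 0.05) and 12 other genes with it (median 0.24), where each point is a gene and lines are medians.

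Other ER folding factors gave a wider view of the same pathway. Of 41 genes, 39 passed the minimum, *Pdia2* and *Clgn* being under it, and 13 had a log2 fold change above 0 and 26 below, with a median of -0.04. At an unadjusted p under 0.05 in limma, 0 were higher and 1 lower, where 0.803% of all genes were higher and 0.958% lower. With the replicate block 0 were higher and 2 lower, against 2.28% and 2.42% of all genes. *Tor1a*, which encodes the ATPase torsin-1A of the ER lumen, was at 48.6, 60.0 and 43.6 TPM in *Surf4 fl/fl Alb-Cre+* livers and at 69.7, 101 and 51.5 TPM in controls (log2 fold change -0.50, unadjusted p = 0.0881 with limma and 0.0089 with the replicate block). *Erp27*, a disulfide isomerase relative without an active site, was near the minimum, with at most 0.038 TPM in *Surf4 fl/fl Alb-Cre+* livers and between 0.122 and 0.624 TPM in controls (unadjusted p = 0.0192 with limma). Neither passed the adjusted threshold.

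Of 15 regulators of the unfolded protein response, 7 were above 0 and 8 below, with a median log2 fold change of -0.04. *Atf6*, *Xbp1*, *Ern1* and *Eif2ak3* were at -0.04, 0.16, 0.39 and -0.29, and the genotypes overlapped for each. *Herpud1* was at 339, 320 and 320 TPM in *Surf4 fl/fl Alb-Cre+* livers and at 343, 417 and 614 TPM in controls. Each deleted mouse was below each control (log2 fold change -0.45, unadjusted p = 0.0755 with limma), but the groups overlapped after scaling by median of ratios. *Derl3*, a derlin of ER-associated degradation, was at 5.62, 6.25 and 14.4 TPM in *Surf4 fl/fl Alb-Cre+* livers and at 0.977, 0.590 and 0.822 TPM in controls, with an adjusted p of 0.456 from limma and 0.195 with the replicate block. *Creb3l3*, which encodes the hepatic ER membrane transcription factor CREBH, was at 252, 274 and 210 TPM in *Surf4 fl/fl Alb-Cre+* livers and at 221, 211 and 183 TPM in controls (log2 fold change 0.26, unadjusted p = 0.122 with limma and 0.038 with the replicate block). The order of the mice differed between *Derl3* and *Creb3l3*, as *Derl3* was highest in replicate 3 of the deleted mice. In that mouse 24 of the 34 folding genes were below the control of the same number, as were 9335 of all 14189 genes tested. After scaling by median of ratios, 15 of the 34 genes were above that control, and 6890 of all genes.

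Markers of the cells that liver tissue holds were read beside these values. The 8 hepatocyte markers were all detected and added up to 56484 to 77129 TPM in *Surf4 fl/fl Alb-Cre+* livers and 75635 to 86482 TPM in controls. Of these markers, *Cps1* and *Hnf4a* had log2 fold changes above 0 (0.19 and 0.08) and 6 were below, with a median of -0.11. For these 2 genes and for *Alb*, *Fgb*, *Tat* and *Serpinc1* the genotypes overlapped. Among the 8 markers, *Apoa1* was lower in every *Surf4 fl/fl Alb-Cre+* mouse (9601 ± 726 against 18070 ± 2572 TPM, SD, n = 3 each, log2 fold change -0.91, unadjusted p = 0.00651 with limma), as was *Ttr* (3868 ± 440 against 4974 ± 106 TPM, unadjusted p = 0.0771 with limma and 0.0342 with the replicate block). Plasma and B cells, which are rich in ER chaperones, had 10 of 11 markers at a mean of at least 0.1 TPM. The sum of these markers was 26.1, 36.5 and 8.60 TPM in the *Surf4 fl/fl Alb-Cre+* livers of replicates 1, 2 and 3 and 24.2, 45.7 and 9.60 TPM in controls, so that it followed the replicate number and the genotypes overlapped. The female control, lowest for most of the folding genes, was the highest in this sum. Of 11 pancreatic acinar markers, 7 were listed at 0 in every mouse (*Cpa1*, *Prss2*, *Cela3b*, *Pnlip*, *Amy2b*, *Clps* and *Cel*), and the sum, from 17.1 to 22.6 TPM in *Surf4 fl/fl Alb-Cre+* livers and 17.4 to 22.6 TPM in controls, was nearly all *Cela1*. The 6 Kupffer cell markers added up to 461 and 424 TPM in the female mice of the genotypes and to at most 181 TPM in the males. Of these markers, 2 had a log2 fold change above 0 and 4 below, with a median of -0.08. *Marco* was higher in each *Surf4 fl/fl Alb-Cre+* mouse than in its same-numbered control (unadjusted p = 0.310 with limma and 0.0219 with the replicate block), while *Cd5l* was lower in each. The 7 T cell and neutrophil markers added up to 39.3, 254 and 46.6 TPM in *Surf4 fl/fl Alb-Cre+* livers and 34.1, 126 and 21.0 TPM in controls. *S100a8* and *S100a9* made up most of the sum in every mouse, so it says little of T cells. Their log2 fold changes were 0.87 and 0.79, with an unadjusted p of 0.382 and 0.3998 with limma. With the replicate block in limma the unadjusted p was 0.0101 and 0.015. Of the 7 markers 5 were above 0, and 2, *Cd3e* and *Cd3g*, were below (-0.17 and -0.13). Sinusoidal endothelial markers (88.1 to 204 TPM against 117 to 190 TPM), stellate cell markers (121 to 247 TPM against 93.5 to 258 TPM) and cholangiocyte markers (23.3 to 39.2 TPM against 15.0 to 59.3 TPM) overlapped between the genotypes. The part of these cells in the values of the folding genes was not tested.

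The TPM of a gene is a sum over its annotated transcripts, of which the 34 genes had 163, from 1 to 11 per gene with a median of 4. A single leading transcript held at least 90% of the TPM in every mouse for 22 genes, among them *Hsp90b1*, *Calr*, *P4hb*, *Pdia6* and *Sdf2l1*. For *Hspa5* the leading transcript held 72.4% to 75.7% in *Surf4 fl/fl Alb-Cre+* livers and 75.7% to 76.6% in controls, and for *Ero1b* between 65.8% and 79.6% over all mice. *Hyou1* was the gene whose leading transcript was not the same in every mouse. How reads were divided among transcripts can move the share of each, while the sum over the gene depends on it less.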

How the data were processed

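Liver RNA of 6 mice was sequenced, 3 per genotype. The authors deposited TPM per transcript and mouse, corrected for transcript length, with a total of 1000000 per mouse. The labels of the table name salmon, while the methods and the submitters' processing notes name STAR and RSEM on GRCm38, so the tool behind the values is not settled here. A table of the authors' own DESeq2 comparison, with log2 fold changes, standard errors and p-values, was not used. Read depth is unknown. The precision of each comparison is set by 3 mice per genotype, and p-values measure the spread between these mice.

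TPM were summed per gene symbol over 116748 transcripts. Of these, 163 without a symbol, with 0.0515% to 0.0887% of the TPM of a mouse, were left out. The genotypes were compared by limma 3.58.1 (empirical Bayes with a trend on mean expression, R 4.3.3) on log2(TPM + 0.1), for genes whose mean reached 0.1 TPM. Genotype was the sole factor. P-values were two-sided and adjusted over all 14189 genes tested, with the threshold of 0.01. Single genes were also compared by exact permutation (scipy 1.17.1). The fit was tested on simulated data.

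Deviations from the genotype means, over the 10635 genes that averaged 1 TPM or more, correlated between same-numbered mice at 0.49, 0.69 and 0.45, and between other mice at -0.54 to 0.24. The deviations of a genotype sum to 0 for each gene, so positive correlations for some mice force negative ones for others. The value of 0.69 was that of the female mice, whose sex and number cannot be told apart. The correlations therefore cannot decide whether the replicate numbers pair the mice. Values with the number as a block are an alternative, given where they changed a count. The labels do not say what a number marks.

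The genes of the list and all other lists were chosen with earlier results of these data known. Each gene of the list is named. Values per mouse are given for genes with the same sign in every same-numbered comparison, the 5 of largest absolute log2 fold change and the 5 of highest mean. From the other lists, genes with an unadjusted p under 0.05 in either fit are named, at most 8 per list. Further genes of these lists are also named, chosen after the data were seen. Alternatives were the block, sex as a covariate, a pseudocount or minimum of 1 TPM, no minimum, median of ratios with and without the block, no trend, an adjusted p of 0.05 and each mouse left out. Added after the data were seen were male mice alone and the counts of overlap and sign after median of ratios. Promoters were RefSeq's (GRCm38.p6) and gene positions GENCODE M21's. Protein features had been planned and were not analysed here.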

Additional observations from a re-analysis of the deposited data

How the results depend on the processing

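No gene of the list passed an adjusted p of 0.01 under any alternative. Over all genes the count was 0 in each fit for genotype (0 to 1 when single mice were left out), and at an adjusted p of 0.05 it was 0 as well. For the interaction it was 0 except with no minimum, where 323 genes passed, and the cause was not tested. Genes of the list at an unadjusted p under 0.05 numbered 3 (1.76% of all genes), and 5 with the replicate block (4.69%), 5 with sex as a covariate (3.74%), 5 with median of ratios (2.32%), 7 with median of ratios and the block (5.50%), 1 in male mice alone (3.86%), and 1 (without *Surf4 fl/fl Alb-Cre+* replicate 1, *Ero1b*) to 6 (without *Surf4 fl/fl Alb-Cre+* replicate 3) when single mice were left out. The share of all genes was also above 1.76% in each fit that gave 5 to 7 genes. At an adjusted p of 0.01 the block changed no call. *Ero1b* was among them in every such fit. The median of the 34 genes ran from -0.0084 (male mice alone, 14 genes above 0) to 0.16 (without *Surf4 fl/fl Alb-Cre+* replicate 3, 29 above 0). Genes with the same sign in every same-numbered comparison numbered 4 lower after median of ratios, against 2.

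Of the 15 alternatives, 6 give by construction the log2 fold changes of another fit and bear on errors alone. Under the other 9 the sign of the log2 fold change held for 15 genes, 11 above 0 and 4 below, and turned under some for 19. *Hspa13* was at 0.0002 with a pseudocount of 1 TPM and at 0.0074 with median of ratios, with or without the block. In male mice alone *Hyou1* was at -0.028, *Calr* at -0.087, *Canx* at -0.0040, *Txndc11* at -0.049, *Dnajc3* at -0.10, *Dnajc10* at -0.046, *Ppib* at -0.013 and *Manf* at -0.0003. Leaving out single mice gave ranges of -0.20 to 0.17 for *Hspa13*, -0.033 to 0.12 for *Sil1*, -0.32 to 0.11 for *Pdia5*, -0.15 to 0.036 for *P4hb*, -0.16 to 0.095 for *Txndc5*, -0.15 to 0.0080 for *Erp44*, -0.14 to 0.085 for *Tmx2*, -0.037 to 0.19 for *Tmx4*, -0.53 to 0.16 for *Dnajb9*, -0.051 to 0.064 for *Dnajc3*, -0.20 to 0.20 for *Dnajc10*, -0.0051 to 0.24 for *Ppib*, -0.0085 to 0.19 for *Fkbp11* and -0.48 to 0.37 for *Fkbp14*. The cause of these changes was not tested.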
